A study of Mus musculus with 23 samples.

Results

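Fgf2, the gene of basic fibroblast growth factor, was examined together with 9 other genes of fibroblast growth factor (FGF) signalling in juvenile mouse testes. The genes were taken by symbol from the annotation of the array: the ligands Fgf2, Fgf8, Fgf9, Fgf10 and Fgf18, the receptors Fgfr1, Fgfr2, Fgfr3 and Fgfr4, and the feedback gene Spry4. They are 10 of 19661 genes on the array, with 1 probe set each. Fgf2 was chosen by its measured level, which differed between a pair of reciprocal hybrids, PWDxB6 and B6xPWD, so its values in comparisons that use those arrays are given as a description and were not tested.

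RNA was measured on 23 Affymetrix Mouse Gene 1.0 ST arrays, each with RNA of 4 pooled testes of mice aged 14.5 days, after spermatogenic cell populations had been isolated. The inter-subspecific hybrids were PWDxB6 (3 arrays) and B6xPWD (3 arrays), offspring of the same pair of strains with the mother named first, as is conventional. The crosses within a subspecies were PWDxPWK (2 arrays), B6xBALB/C with 6 arrays, and BALB/CxB6 with 3 arrays, and the inbred parents were PWD (3 arrays), of Mus musculus musculus, and B6 (3 arrays), mainly of Mus musculus domesticus. No genotype carried a treatment, and whether the pools of 1 genotype shared a litter is not stated, so the tests speak of the spread from pool to pool, which may be technical.

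FGFs are secreted proteins that bind receptor tyrosine kinases together with heparan sulfate on the cell surface, and the receptors signal through adaptors to the ERK kinases. Sprouty proteins such as Spry4 are induced by this signal and dampen it. In the mouse testis, Fgf9 is needed for male sex determination, and Fgf2 is used in culture with Gdnf to maintain spermatogonial stem cells, whose fate is also influenced by FGF signals from somatic cells.

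The stretches just upstream of the outermost annotated start of Fgf2, Fgfr2 and Fgfr3 are shown because these genes differed most among the genotypes other than the reciprocal hybrids. They are RefSeq sequence of GRCm38.p6, 5′ to 3′ on the strand of the gene, and capitals mark GC boxes (GGGCGG, or CCGCCC on the other strand).
Fgf2 promoter, plus strand, chr3:37348403-37348476: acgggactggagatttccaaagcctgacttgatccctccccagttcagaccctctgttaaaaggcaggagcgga
Fgfr2 promoter, minus strand, chr7:130266809-130267058: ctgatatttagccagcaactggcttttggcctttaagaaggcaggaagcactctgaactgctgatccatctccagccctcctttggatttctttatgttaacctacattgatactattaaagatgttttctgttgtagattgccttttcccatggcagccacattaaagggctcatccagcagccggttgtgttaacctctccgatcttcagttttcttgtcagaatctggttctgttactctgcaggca
Fgfr3 promoter, plus strand, chr5:33721474-33721723: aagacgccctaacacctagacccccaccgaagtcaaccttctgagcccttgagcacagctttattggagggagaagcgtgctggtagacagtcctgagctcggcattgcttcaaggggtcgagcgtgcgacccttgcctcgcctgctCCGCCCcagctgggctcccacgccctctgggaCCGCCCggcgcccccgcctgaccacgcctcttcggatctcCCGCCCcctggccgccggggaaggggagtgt
In windows of 300 bases, from 250 before to 50 after a start, the GC box occurred 1 time for Fgf2, 0 times for Fgfr2 and 4 times for Fgfr3 (its outermost start). Of 32851 such windows of all genes, 35.7% held it. GC content was 62.7% for Fgf2, 43.7% for Fgfr2 and 69.7% for Fgfr3, against a median of 52.7%. A match is a description of letters, and these data hold no binding measurement. A window was found for 7 of the 10 genes.

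The labelled tissue was checked against cell markers. Germ cell markers were bright, with Dazl at a mean log2 level of 11.36 and Ddx4 at 10.45, and so were markers of somatic cells, with the Sertoli cell gene Clu at 12.79 and the smooth muscle actin gene Acta2 of peritubular cells at 11.68. The pools were thus mixtures, in which fewer cells of a type and less RNA per cell cannot be told apart. B6xBALB/C replicate 6 stood apart in the mean level of 14 spermatocyte markers, 7.67 against 8.52 to 9.23 in the other arrays of that genotype. Of all genes, 14745 passed a filter that left out the dimmest 25%, and among the 10 genes only Fgf10 did not pass. Calls were made with limma in 1 model over 23 arrays, and a gene is named as called where its p-value, adjusted over all 14745 genes by the Benjamini-Hochberg method, fell under 0.05. Differences are log2 units, first genotype minus second.

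Fgf2 (chromosome 3, 37348477 to 37410106, GRCm38.p6) was highest in PWDxB6 testes. Its log2 level was 7.53, 7.75 and 7.15 in PWDxB6, against 6.20, 5.94 and 6.33 in B6xPWD. In the parents it was 6.65, 6.57 and 6.86 in PWD and 6.07, 5.96 and 6.07 in B6. All 3 PWDxB6 arrays lay above every other array of the series, while the B6xPWD arrays lay below those of PWD and overlapped those of B6. The 2 PWDxPWK arrays had 6.37 and 6.70. In the crosses without PWD, the 6 B6xBALB/C arrays had a lowest value of 5.56, a median of 5.88 and a highest of 6.14, and BALB/CxB6 had 5.67, 5.77 and 5.58. Every BALB/CxB6 array lay below every array with a PWD parent.

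By genotype mean, Fgf2 ran in the order PWDxB6 (7.48 ± 0.30), PWD (6.70 ± 0.15), PWDxPWK (6.54 ± 0.23), B6xPWD (6.15 ± 0.20), B6 (6.03 ± 0.06), B6xBALB/C (5.87 ± 0.20) and BALB/CxB6 (5.67 ± 0.10), each ± SD over its arrays. Neighbours in this order did not overlap between PWDxB6 and PWD or between PWDxPWK and B6xPWD, and overlapped elsewhere. PWDxB6 exceeded B6xPWD by 1.32, a 2.50-fold higher signal, and exceeded the mean of both parents, called the mid-parent below, by 1.11. B6xPWD was 0.21 under the mid-parent of 6.36 (difference -0.21). PWDxB6 also exceeded PWD by 0.78, B6 by 1.44 and PWDxPWK, which has the same maternal strain, by 0.94. Reciprocal hybrids hold the same autosomal alleles and differ in the parent that each came from, in the X, the Y and the mitochondria. Over the 32 alternative settings, single arrays left out among them, the reciprocal difference ranged between 1.19 and 1.49.

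**Figure D1:**
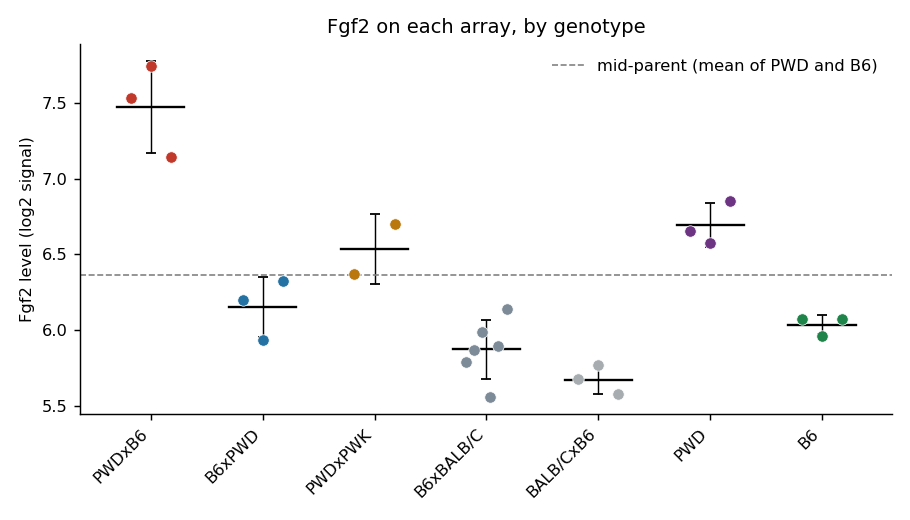
Log2 signal of Fgf2 (vertical axis) on each of 23 arrays by genotype (horizontal axis); points are arrays, bars are means with SD, and the dashed line is the mid-parent of 6.36. The 3 PWDxB6 arrays, at 7.15 to 7.75, lie above all other arrays.

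Among the genotypes that the choice of Fgf2 did not use, Fgf2 also varied. A moderated F-test over PWDxPWK, B6xBALB/C, BALB/CxB6, PWD and B6 gave F = 17.7 (limma, adjusted p = 4.03e-05), with means spread over 1.02, and 27.8% of all genes were called by this test. PWD exceeded B6 by 0.66 (SE 0.148, limma adjusted p = 0.00306), a 1.58-fold difference with no overlap between arrays, as for 38% of all genes. The call was kept under all 32 alternative settings. PWD and B6 differ in sequence, and a difference in the match of probes to the transcript and a difference in RNA cannot be told apart here. Fgf2 was not called between B6xBALB/C and BALB/CxB6 (0.20, SE 0.128, limma adjusted p = 0.517) or between PWDxPWK and PWD (-0.16, SE 0.165, limma adjusted p = 1.00).

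Over the 5 genotypes other than the reciprocal hybrids, the genotype means of the other ligands spanned 0.14 for Fgf8, 0.39 for Fgf9, 0.16 for the dim Fgf10 and 0.18 for Fgf18, against 1.02 for Fgf2. Over all 7 genotypes the spans were 0.22 for Fgf8, 0.39 for Fgf9, 0.32 for Fgf10 and 0.25 for Fgf18. The span of 1.80 for Fgf2 over all 7 rests on the PWDxB6 values by which it was chosen. Fgf9 had 6.62, 6.36 and 6.25 in PWDxB6, against 6.44, 6.03 and 6.07 in B6xPWD. It had 6.41, 6.41 and 6.61 in PWD, against 6.31, 6.21 and 5.89 in B6. The hybrids overlapped and the parents did not. The PWD minus B6 difference of Fgf9 was 0.34 (SE 0.125, limma adjusted p = 0.0624), which missed the threshold. It was called with array weights (adjusted p = 0.0372), without B6xPWD replicate 1 (0.0437) and without B6 replicate 1 (0.0413).

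Fgf9 was called in the F-test over the 5 other genotypes (range 0.39, limma adjusted p = 0.0353), with PWDxPWK at 6.49 and 6.50. The call was lost under 11 of 32 settings, among them quantile normalization (adjusted p = 0.0510), centring on autosomal genes (0.0568), and leaving out either PWDxPWK array, any PWD array, B6xBALB/C replicate 1, 2 or 5, or BALB/CxB6 replicate 1 (0.0518 to 0.102). Fgf8, a ligand of early germ cell and urogenital development, had 7.52, 7.19 and 7.19 in PWDxB6 and 7.45, 7.17 and 6.90 in B6xPWD. Fgf18 had 7.0, 7.15 and 6.98 in PWDxB6, just above 6.93, 6.53 and 6.97 in B6xPWD. Neither Fgf8 (0.13, 95% interval -0.18 to 0.44) nor Fgf18 (0.23, 95% interval -0.02 to 0.48) was called between the hybrids. With array weights, under which 31.4% of all genes were called there, Fgf9 had a difference of 0.29 (limma adjusted p = 0.0314) and Fgf18 of 0.40 (0.00437), and both were called. Fgf10, a ligand of branching organs, had genotype means of 4.30 to 4.62 and was too dim to test.

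Fgfr1 (chromosome 8, 25518759 to 25575718), a receptor of Fgf2, was low in B6xPWD. Its level was 7.63, 7.38 and 7.72 in PWDxB6, against 7.10, 7.0 and 7.08 in B6xPWD. It was 7.59, 7.57 and 7.74 in PWD and 7.72, 7.87 and 7.74 in B6. The B6xPWD arrays lay below all other arrays of the series, while those of PWDxB6 lay near the parents. B6xPWD was under the mid-parent by 0.65 (difference -0.65, SE 0.117, limma adjusted p = 0.00242), and this call was kept under all 32 settings. PWDxB6 differed from the mid-parent by -0.13 (SE 0.117, limma adjusted p = 0.713).

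Between the hybrids, Fgfr1 was higher in PWDxB6 by 0.52 (SE 0.136, limma adjusted p = 0.0415). That call was lost under 11 of 32 settings. They were no dim filter (adjusted p = 0.0544), quantile normalization (0.0531), centring on autosomal genes (0.0543), a fit of only these genotypes (0.0641), and the removal of PWDxB6 replicate 1 or 3, any B6xPWD array, or PWD replicate 1 or 2 (0.0524 to 0.171). Both mid-parent comparisons share the PWD and B6 arrays, and the reciprocal comparison shares the hybrid arrays with them.

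Fgfr2 (chromosome 7, 130162451 to 130266808), which in its epithelial form binds Fgf10, was lower in B6xPWD than the mid-parent. It had 6.45, 6.04 and 6.36 in PWDxB6 and 6.23, 6.11 and 6.19 in B6xPWD. The parents had 6.72, 6.58 and 6.80 in PWD and 6.52, 6.33 and 6.27 in B6. The B6xPWD arrays lay below every array of both parents, and those of PWDxB6 overlapped B6. B6xPWD was under the mid-parent by 0.36 (difference -0.36, SE 0.111, limma adjusted p = 0.0355), and PWDxB6 differed from it by -0.25 (SE 0.111, limma adjusted p = 0.368).

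The Fgfr2 call in B6xPWD was lost under quantile normalization (adjusted p = 0.0622), centring on autosomal genes (0.0545), and without any B6xPWD array, PWD replicate 1 or 3, or B6 replicate 1 (0.0601 to 0.146). Over the 5 other genotypes, Fgfr2 was called (range 0.75, limma adjusted p = 0.000805), with BALB/CxB6 lowest at 6.16, 5.85 and 5.84. PWDxPWK had 6.26 and 6.33, below every PWD array, a difference of -0.40 (SE 0.143, limma adjusted p = 1.00) that was not called.

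Fgfr3 (chromosome 5, 33721724 to 33737068), a receptor known for its role in bone growth, was higher in PWD than in B6. Its level was 7.95, 8.0 and 8.17 in PWD, against 7.19, 7.18 and 7.39 in B6, and the strains did not overlap. PWDxPWK, with both parents of the musculus subspecies, had 8.07 and 7.86. The hybrids had 7.50, 7.47 and 7.43 in PWDxB6 and 7.61, 7.45 and 7.31 in B6xPWD. The PWDxB6 arrays lay between the strains, and B6xPWD had 1 array within the range of B6. PWD exceeded B6 by 0.79 (SE 0.105, limma adjusted p = 1.33e-05), a 1.72-fold difference called under all 32 settings. Over the 5 other genotypes the adjusted p of Fgfr3 was 5.38e-07 (limma), with means spread over 0.84. The reciprocal difference was 0.01 (95% interval -0.21 to 0.23).

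Fgfr4, known as the receptor of the endocrine ligand Fgf15 in liver, had 6.11, 5.67 and 6.08 in PWDxB6 and 5.90, 5.74 and 5.75 in B6xPWD. It was called in none of the comparisons, except between the hybrids with array weights (0.26, limma adjusted p = 0.0432), where 31.4% of all genes were then called. The main difference was 0.15 (adjusted p = 0.498), and its genotype means spanned 0.28. At an unadjusted p under 0.05 it also passed none of the 6 pairwise comparisons.

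Spry4, the feedback gene on chromosome 18, had nearly equal means in the hybrids and was higher in PWD than in B6. It had 5.91, 6.29 and 6.19 in PWDxB6, against 6.17, 6.21 and 5.99 in B6xPWD, and the groups overlapped. The reciprocal difference was 0.00 (SE 0.135, 95% interval -0.27 to 0.28). PWD had 6.44, 6.53 and 6.40, above 6.17, 5.93 and 5.79 in B6, by 0.49 (SE 0.135, limma adjusted p = 0.0131). That call was lost without PWD replicate 2 (adjusted p = 0.0551) or B6 replicate 3 (0.0741). In the F-test over the other 5 genotypes Spry4 missed the threshold (limma adjusted p = 0.0518) and passed it under 9 of 32 settings, with adjusted p between 0.00277 with array weights and 0.0489.

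**Figure D2:**
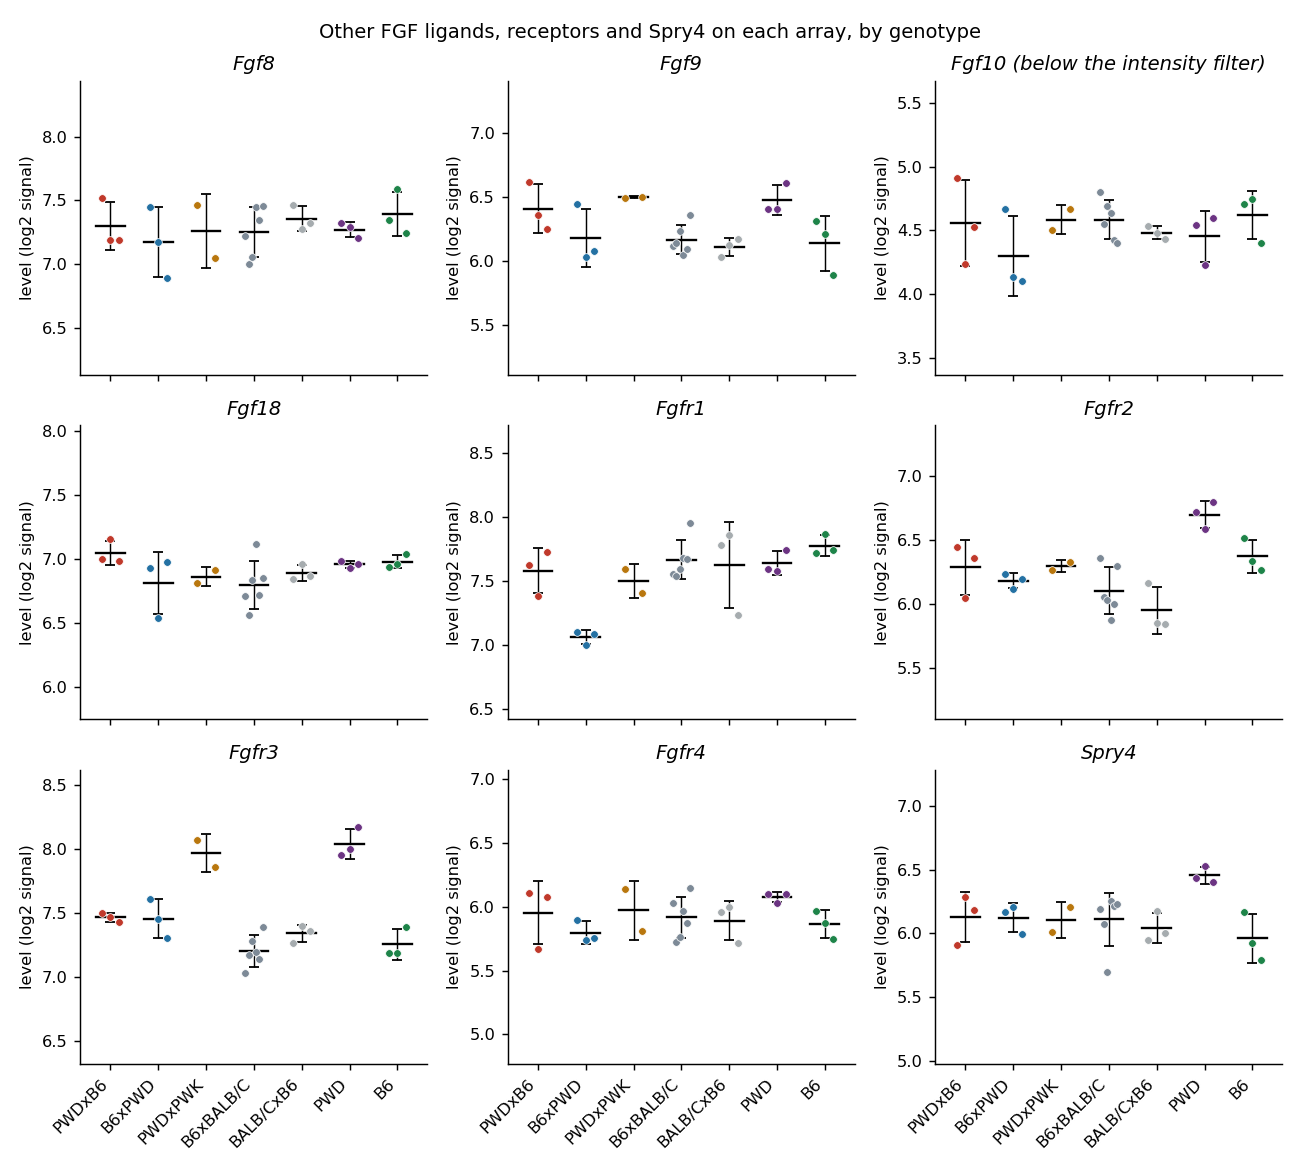
Log2 signal (vertical axes, of equal height) of the other 9 genes on each array by genotype (horizontal axes); points are arrays and bars are means with SD. Fgfr1 is low in B6xPWD at 7.0 to 7.10, and Fgfr3 is high in PWD and PWDxPWK at 7.86 to 8.17.

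Counted over the 8 tested genes other than Fgf2, 1 was called higher in PWDxB6 than in B6xPWD (Fgfr1), where 2.83% of all genes were called, 1.33% higher and 1.51% lower. None was called between PWDxB6 and the mid-parent, where 0.671% of all genes were called, 0.509% higher and 0.163% lower. In B6xPWD against the mid-parent, 2 of 8 were called and both were lower (Fgfr1 and Fgfr2), where 14.5% of all genes were called, 7.79% higher and 6.69% lower. Without B6xPWD replicate 2 that share was 2.64%, and 1 of 8 was called (Fgfr1). The median reciprocal difference of the 8 genes was 0.14, against 0.03 for all genes, and 8 of 8 differences were above 0. With centring on autosomal genes 6 of 8 were above 0, and with quantile normalization 7 of 8. The median of B6xPWD minus the mid-parent was -0.17, against -0.03 for all genes, and 8 of 8 were below 0 under both other scalings as well. Most Sertoli, Leydig, peritubular and endothelial markers had the same signs as these genes in both comparisons.

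Between the parents, 3 of 9 were called higher in PWD than in B6 (Fgf2, Fgfr3 and Spry4), where 18.4% of all genes were called, 10.4% higher and 8.04% lower. In B6xBALB/C against BALB/CxB6, 0 of 9 were called (limma), where 0.441% of all genes were called, 0.359% higher and 0.0814% lower. In that comparison 0 of 9 had arrays without overlap, against 3.91% of all genes. Likewise 0 of 9 had an unadjusted p under 0.05, against 14.2% of all genes. In PWDxPWK against PWD, 0 of 9 were called (limma), where 0.00678% of all genes were called. The arrays of 3 of 9 did not overlap there (Fgf18, Fgfr2 and Spry4), against 21.5% of all genes. An unadjusted p under 0.05 was found for 2 of 9, Fgfr2 and Spry4, both lower in PWDxPWK, and for 2.84% of all genes.

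**Figure D3:**
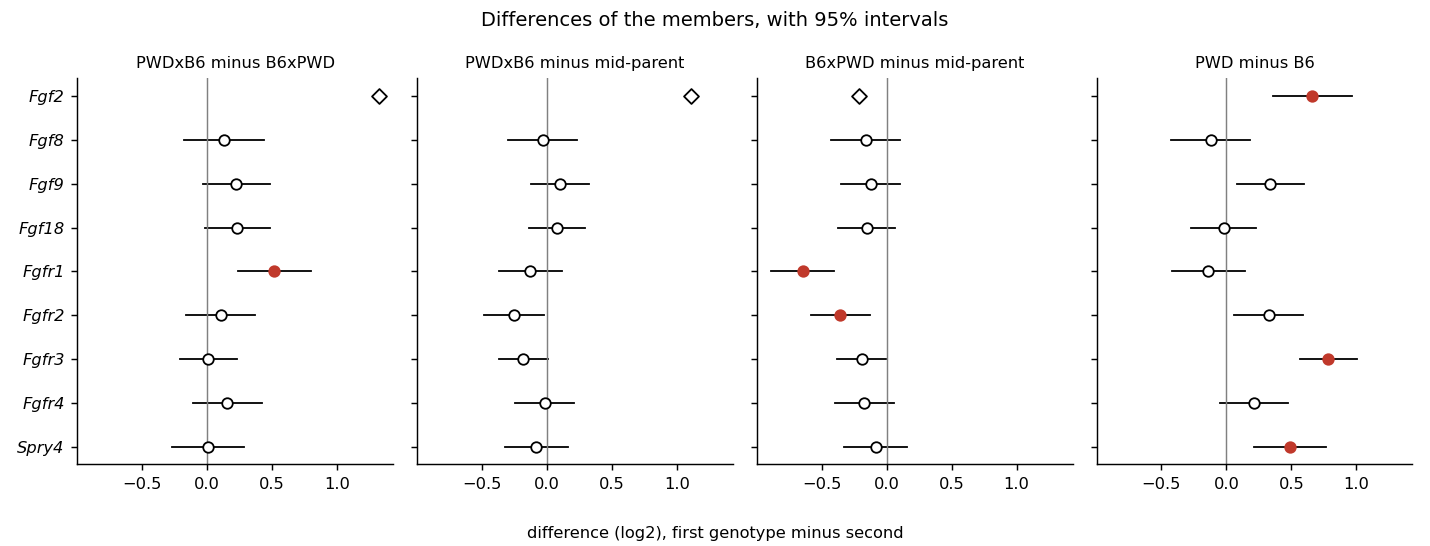
Log2 differences (horizontal axis, first genotype minus second) of the 9 tested genes in 4 comparisons; lines are 95% intervals of the limma model, filled points passed the threshold, and diamonds without a line are the untested Fgf2 values. Fgf2 stands at 1.32 and 1.11 in the PWDxB6 panels.

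Cell markers also differed between genotypes. The mean level of 5 peritubular markers ranged between 8.87 and 9.23 in PWDxB6, against 8.48 to 8.67 in B6xPWD. Of these markers 2 of 5 were called higher in PWDxB6, where 1.33% of all genes were. By genotype, the peritubular mean was 8.84 in PWD, 8.80 in B6xBALB/C, 8.79 in B6, 8.56 in PWDxPWK and 8.53 in BALB/CxB6. The mean of 14 spermatocyte markers ranged between 7.86 and 8.20 in PWDxB6, against 8.42 to 8.79 in B6xPWD. Of 13 tested, 1 was called, lower in PWDxB6, where 1.51% of all genes were called lower. The germ cell markers Dazl and Ddx4 averaged 10.61 in PWDxB6 and 11.09 in B6xPWD, and neither was called between them. In B6xPWD against the mid-parent, 4 of 5 endothelial, 3 of 9 Sertoli, 2 of 5 peritubular and 1 of 3 Leydig markers were called lower, where 6.69% of all genes were. In the same comparison 1 of 2 germ cell, 1 of 8 spermatogonial and 1 of 13 spermatocyte markers were called higher, where 7.79% of all genes were, and 13 of 13 spermatocyte markers lay above 0 with a median of 0.34. None of 3 tested macrophage markers was called there, and the macrophage genes Adgre1 and Cd163 were too dim to test. Between PWD and B6, 2 of 3 macrophage markers (median -0.58), 1 of 3 Leydig and 1 of 2 germ cell markers were called lower in PWD. Of the other lists, spermatogonia had 2 higher and 1 lower of 8, and spermatocytes 1 higher and 1 lower of 13. Of all genes 10.4% were called higher there and 8.04% lower. Sertoli, peritubular and endothelial markers had 0 called by limma. At an unadjusted p under 0.05 they had 2, 2 and 1, against 31% of all genes. The part of these shifts in the Fgf2, Fgfr1, Fgfr2, Fgfr3 and Spry4 values was not tested.

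The neighbours of Fgf2 on chromosome 3, Nudt6, Spata5 and Spry1, were not called between the hybrids (limma; 1 of 3, Spry1, had an unadjusted p under 0.05). Nudt6, which overlaps Fgf2 by 5125 bases and whose transcript is known as an Fgf2 antisense RNA, had 7.17, 7.09 and 7.04 in PWDxB6, against 7.0, 6.95 and 7.02 in B6xPWD. The Nudt6 arrays of the hybrids did not overlap, as for 24% of all genes, but the difference of 0.11 (SE 0.101, limma adjusted p = 0.536) was not called. Nudt6 was higher in PWD than in B6 by 0.50 (SE 0.101, limma adjusted p = 0.00112), as Fgf2 was. Spata5, next along the chromosome, differed by -0.13 between PWDxB6 and B6xPWD (SE 0.102, limma adjusted p = 0.494). Probe positions were not analysed here, so whether probes of Fgf2 and Nudt6 share sequence was not tested.

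Spry1, a Sprouty gene further along chromosome 3, had 7.10, 7.20 and 7.18 in PWDxB6, against 6.88, 6.74 and 6.57 in B6xPWD. These arrays did not overlap and lay on opposite sides of the mid-parent, as those of Fgf2 did, although 1 PWDxB6 array only just exceeded it, and the difference of 0.43 (SE 0.123, limma adjusted p = 0.0582) missed the threshold. Spry1 was called lower in B6xPWD than the mid-parent by 0.37 (difference -0.37, SE 0.106, limma adjusted p = 0.0242), and lost that call without B6xPWD replicate 2 (adjusted p = 0.0889), B6xPWD replicate 3 (0.114) or B6 replicate 2 (0.0514).

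**Figure D4:**
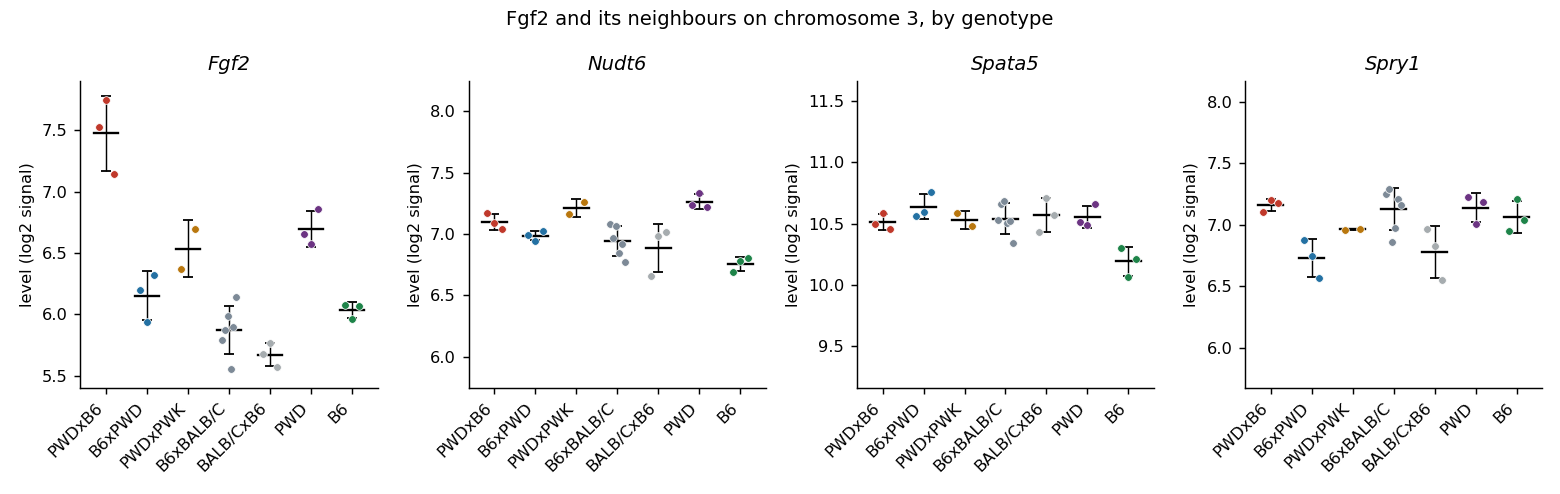
Log2 signal (vertical axes, of equal height) of Fgf2, Nudt6, Spata5 and Spry1 on each array by genotype (horizontal axes); points are arrays and bars are means with SD. PWDxB6 stands above B6xPWD by 1.32 for Fgf2 and by 0.11 for Nudt6.

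Of 67 further FGF pathway genes in lists by role, 65 were on the array and 52 were tested. By sign alone, 42 of the 52 were above 0 in PWDxB6 minus B6xPWD, with a median of 0.20 against 0.03 for all genes. With Nudt6 and Spata5 added, 43 of 54 were above 0, and 41 of 54 with autosomal centring. Of the cell markers, 5 of 5 peritubular, 3 of 3 Leydig, 4 of 5 endothelial, 8 of 9 Sertoli and 2 of 3 macrophage markers were also above 0. Spermatogonia had 4 of 8 above 0, spermatocytes 1 of 13, germ cells 0 of 2 and red blood cells 0 of 1. The part of cell mixture in these signs was not tested. Between the hybrids, 1 of 52 was called higher in PWDxB6 and 1 lower, against 1.33% and 1.51% of all genes, and both are X-linked. With Nudt6 and Spata5 included, this count of 2 was 1 without PWDxB6 replicate 1 or 3 or B6xPWD replicate 2. It was 4 without PWDxB6 replicate 2 and 6 without B6xBALB/C replicate 6. Over all genes 418 were called, against 81, 54, 59, 626 and 851 without these arrays, in that order. Hs6st2, which adds sulfate to heparan sulfate, had 7.61, 7.47 and 7.77 in PWDxB6, against 8.19, 8.27 and 8.46 in B6xPWD. It had 7.92, 7.76 and 7.57 in PWD, against 8.51, 8.32 and 8.50 in B6, so each hybrid lay near the strain of its mother. Hs6st2 was lower in PWDxB6 than in B6xPWD by 0.69 (difference -0.69, SE 0.126, limma adjusted p = 0.00614), and lower in PWD than in B6 by 0.69 (difference -0.69, SE 0.126, limma adjusted p = 0.00047). Both Hs6st2 calls were kept under all 32 settings.

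Fgf13, an intracellular FGF homologous factor that acts on sodium channels and not through FGF receptors, had 6.83, 6.93 and 6.96 in PWDxB6, against 6.52, 6.46 and 6.46 in B6xPWD. The difference was 0.43 (SE 0.107, limma adjusted p = 0.0341). It was lost under 8 of 32 settings, among them quantile normalization (adjusted p = 0.0637), centring on autosomal genes (0.0557), only these genotypes (0.0752), and the removal of any PWDxB6 array or B6xPWD replicate 2 or 3 (0.0551 to 0.132). Against the mid-parent, PWDxB6 had 1 called gene of 52 (0.671% of all genes), Hs6st2, lower by 0.48 (difference -0.48, SE 0.109, limma adjusted p = 0.0389). For X-linked genes this comparison holds a share of the parental difference, because a male hybrid carries 1 parent's X. The Hs6st2 call was lost without any of PWDxB6 replicates 1 and 2, B6xPWD replicate 2, PWD replicates 1 and 2, and B6 replicates 1 and 3 (adjusted p = 0.0508 to 0.364).

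In B6xPWD against the mid-parent, 9 of 52 pathway genes were called lower and 0 higher (limma), where 6.69% of all genes were called lower and 7.79% higher. The median of the 52 was -0.18, against -0.03 for all genes, and 41 were below 0. With Nudt6 and Spata5 added, 42 of 54 were below 0, and 40 of 54 with autosomal centring. The heparan sulfate proteins Sulf2, a sulfatase, and Hspg2, the matrix proteoglycan perlecan, were lower by 0.63 and 0.61 (differences -0.63 and -0.61, limma adjusted p = 0.00346 and 0.004). Flrt1, a membrane protein that binds FGF receptors, was lower by 0.68 (difference -0.68, limma adjusted p = 0.00862). Sulf2 had 8.03, 7.98 and 8.24 in B6xPWD, against 8.28, 8.21 and 8.47 in PWD and 9.16, 9.14 and 9.02 in B6. Hspg2 had 8.12, 8.02 and 8.12 in B6xPWD, against 8.69, 8.72 and 8.90 in PWD and 8.64, 8.84 and 8.42 in B6. Hspg2 in B6xPWD lay below both parents on every array, whereas Sulf2 overlapped PWD. These 3 calls were kept under all 32 settings.

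The other genes called lower in B6xPWD were Fgf13, Spry1, the adaptors Ptpn11 and Sos1, the glypican Gpc4 and the heparan sulfate polymerase Ext1, with differences of -0.43 to -0.29. The neighbour Spata5 was called higher by 0.26. These 7 calls were all lost without B6xPWD replicate 2 (limma adjusted p = 0.0841 to 0.241), which left 3 called, where 2.64% of all genes were. With Spata5 included, the count of 10 was 6 without B6xPWD replicate 1 or B6 replicate 1, and 5 without PWD replicate 2 or B6 replicate 2. Over all genes 2135 were called, against 1408, 1522, 1505 and 1518 without these arrays, in that order. None of the 7 ERK-responsive targets, such as the transcription factor genes Etv4 and Etv5, was called in any of the 6 pairwise comparisons (limma). Between the hybrids 2 of 7 had an unadjusted p under 0.05, as had 21.1% of all genes. In the F-test over the 5 other genotypes, which called 27.8% of all genes, the target Etv1 was called (range 0.77, limma adjusted p = 0.0471). The targets Dusp4, Dusp5 and Egr1 were not called by it, and its results for Etv4, Etv5 and Fos are not given here.

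Between the parents, 3 of 52 were called higher and 8 lower in PWD, where 10.4% of all genes were called higher and 8.04% lower. Flrt2, a relative of Flrt1, had 5.45, 5.33 and 5.91 in PWD, against 7.26, 7.26 and 7.19 in B6, a difference of -1.67 (SE 0.165, limma adjusted p = 1.84e-07). The hybrids lay between the strains, with 6.55, 6.26 and 6.29 in PWDxB6 and 6.35, 6.54 and 6.60 in B6xPWD. Of 17 tested heparan sulfate genes, 7 were called lower in PWD and 0 higher, against 8.04% and 10.4% of all genes. They included Sulf2 (-0.78, limma adjusted p = 0.000383), the syndecan Sdc2 (-0.75, 0.00536), Hs6st2 (-0.69) and the polymerase Ext2 (-0.54, 0.00256), each kept under all 32 settings. Called higher were Fgf4 (0.53, limma adjusted p = 0.0176), Fgf11 (0.39, 0.0301) and Fgf13 (0.31, 0.0448), and also the neighbours Nudt6 and Spata5. Of these, Nudt6 kept its call under all 32 settings, while Spata5 and Fgf4 each lost it under 2, Fgf11 under 5 and Fgf13 under 16. Without PWD replicate 3 or B6 replicate 3, the count of 13 with the neighbours included was 8. Over all genes 2719 were called, against 1941 and 1939 without these arrays.

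**Figure D5:**
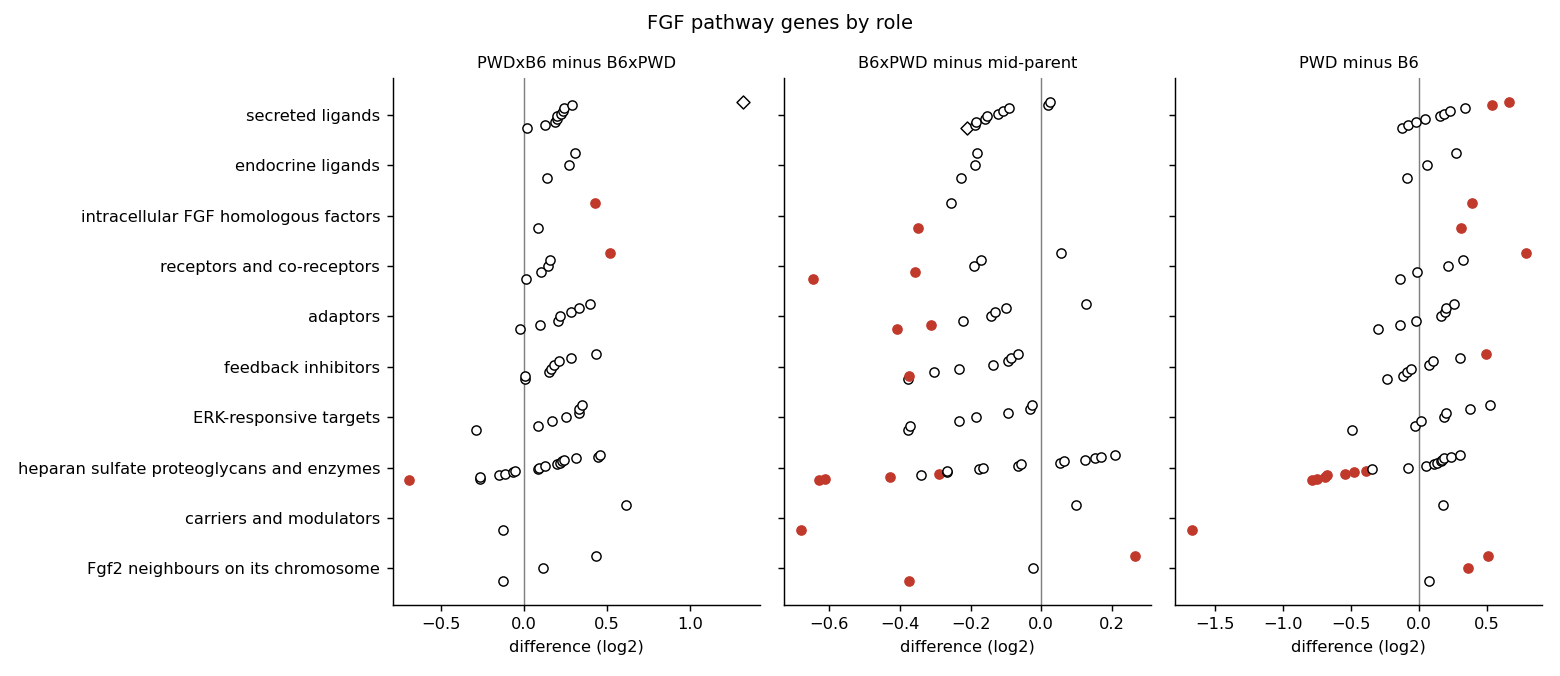
Log2 differences (horizontal axes, whose ranges differ) of the tested FGF pathway genes by role, with the neighbours of Fgf2 (rows), in 3 comparisons; filled points passed the threshold, the diamond is the untested Fgf2, and Spry1 appears in 2 rows. In the PWD minus B6 panel, 7 of 17 heparan sulfate genes are filled, and those 7 lie below 0.

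The genes whose levels ran most like Fgf2 over the 23 arrays were Defb15 (Pearson r = 0.87), Renbp (0.87), Zcchc12 (0.86), Spon2 (0.86) and Smoc2 (0.86). Their Spearman rho was 0.76 for Defb15, 0.80 for Renbp, 0.83 for Zcchc12, 0.84 for Spon2 and 0.85 for Smoc2. Without the 2 arrays farthest from the median of Fgf2, r was 0.75 for Defb15, 0.76 for Renbp, 0.88 for Zcchc12, 0.84 for Spon2 and 0.86 for Smoc2. Defb15 encodes a beta-defensin, and Spon2 and Smoc2 encode secreted matrix proteins. These correlations rest on arrays that share genotype, cell mixture and hybridization, and the ranking used the PWDxB6 arrays. Within genotypes, after the genotype means were taken off, r was 0.19 for Defb15, 0.53 for Renbp, -0.11 for Zcchc12, 0.41 for Spon2 and 0.41 for Smoc2. Of the pathway genes, Fgf9 (0.67), Grb2 (0.66) and Gpc3 (0.66) ran most like Fgf2, and Hs6st2 (-0.57), Flrt2 (-0.56) and Ext2 (-0.52) least.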

How the data were processed

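Total RNA of 23 pools was measured on Affymetrix Mouse Gene 1.0 ST arrays. The deposited values are log2 signals of 25690 probe sets, with the base taken from their range, 1.17 to 13.96. The authors left out a PWDxPWK array after visual checks, per the series design text. How they were background-corrected and normalized, and with what software, is not given in the sources used here; no background signal was analysed. Array medians ran between 6.13 and 6.28.

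Probe sets were named by the platform annotation: 20777 had 1 symbol and were used, while 232 had several and 4681 had no listed symbol. For 564 of 19661 genes with several probe sets, the brightest was taken, and the dimmest 25% of genes (log2 up to 5.12) were left out. The means of the 7 genotypes were fitted to all arrays with limma 3.58.1 in R 4.3.3 (16 residual degrees of freedom), without a replicate block. Comparisons were PWDxB6 against B6xPWD, each against the mid-parent, PWDxPWK against PWD, B6xBALB/C against BALB/CxB6, PWD against B6, and an F-test over the 5 genotypes other than the reciprocal hybrids.

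The genes, the 10 FGF lists (79 genes, 77 on the array, 63 tested, with Nudt6 and Spata5 listed only as neighbours of Fgf2) and the 9 cell marker lists were chosen with earlier results of these data known. The text names, per list and comparison, up to 4 called genes with the smallest adjusted p, the neighbours Nudt6, Spata5 and Spry1, and the 5 genes most correlated with Fgf2 together with the 3 highest and 3 lowest of the pathway. Alternatives were the dim filter, scaling, probe set choice, variance model, array weights, a replicate block, the genotypes fitted and each array left out. The replicate block fit kept replicate numbers up to 3, so B6xBALB/C replicates 4, 5 and 6 were left out of it. Correlations within genotypes and without PWDxB6 were added after seeing the data. The model was tested on simulated arrays. Figures were drawn with matplotlib 3.10.9.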

Additional observations from a re-analysis of the deposited data

Results flagged for a closer look

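In B6xBALB/C, the genotype with 6 arrays, single arrays stood far from the others for 4 of 36 items examined, where chance flags about 1 in 20. The items were genes and the means of the 9 cell marker lists. All 4 flagged items were genes, so the share among genes alone is larger. Fgfr1 had replicate 6 at 7.95, with the others at 7.54 to 7.68. Spry4 had replicate 3 at 5.70, with the others at 6.07 to 6.25. Ext1 had replicate 6 at 8.38, with the others at 7.91 to 8.06, and Sulf2 had replicate 6 at 9.14, with the others at 8.73 to 8.86. Replicate 6 is also the array with the low spermatocyte marker mean of 7.67. The rule did not flag that mean, and its part in these values was not tested.

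The departures of PWDxB6 and B6xPWD from the mid-parent differed for several genes. Both subtract the same mid-parent, so the difference between them is the reciprocal difference given above and not a further test. For Fgf2 the difference between them was 1.32 (1.11 in PWDxB6, -0.21 in B6xPWD), with the arrays of the hybrids on opposite sides of the mid-parent, and it was not tested. It was 0.52 for Fgfr1 (-0.13 in PWDxB6, -0.65 in B6xPWD, limma adjusted p = 0.0415), 0.43 for Fgf13 (0.08 in PWDxB6, -0.35 in B6xPWD, limma adjusted p = 0.0341) and -0.69 for Hs6st2 (-0.48 in PWDxB6, 0.21 in B6xPWD, limma adjusted p = 0.00614). For Spry1, whose arrays also lay on opposite sides, it was 0.43 (0.06 in PWDxB6, -0.37 in B6xPWD) and missed the threshold (limma adjusted p = 0.0582). Fgf13 and Hs6st2 are X-linked, and their departures hold a share of the parental difference.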

How the results depend on the processing

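No result reversed under the 32 alternatives, and 38 of 1425 uncalled values changed sign without being called. Between PWDxB6 and B6xPWD, the count of called genes among the 10 was 1. It was 0 without a dim filter, under quantile normalization, with autosomal centring and with only these genotypes, 4 with array weights, and 0 to 1 without single arrays. For the 54 other listed genes (52 pathway genes, Nudt6 and Spata5) it was 2, against 1 with centring or only these genotypes, 21 with array weights, 7 with a replicate block and 1 to 6 without single arrays; of all genes 2.83% were called, against 31.4% with array weights and 7.08% with the block. In PWDxB6 against the mid-parent it was 1, and 0 to 1 without single arrays. In B6xPWD against the mid-parent the 10 genes gave 2, against 1 with quantile normalization or centring, 4 with array weights and 1 to 2 without single arrays, and the other genes gave 10, against 6 with no dim filter or centring, 25 with array weights and 3 to 12 without single arrays (all genes 14.5%, against 40.5% with array weights and 2.64% without B6xPWD replicate 2). In PWD against B6 the other genes gave 13, and 8 to 13 without single arrays. In B6xBALB/C against BALB/CxB6 they gave 0, against 5 with array weights, 3 with the replicate block and 0 to 2 without single arrays. Of all genes 0.441% were called there, against 11% with array weights and 8.89% with the block. The block fit also left out B6xBALB/C replicates 4, 5 and 6. The count of 2 came without B6xBALB/C replicate 6, where 1011 of all genes were called, against 65. Causes were not tested. Replicate numbers did not pair the samples: deviations of same-numbered arrays correlated at a mean r of 0.03 (57 pairs, 17 above 0.1), and 8 of 23 arrays correlated best with their own number. In the replicate block fit, which lacked those B6xBALB/C arrays, Fgfr2 was called between PWD and B6 (0.33, limma adjusted p = 0.0344, against 0.0809). The block and the missing arrays cannot be told apart in that fit. Of the 5 genes most like Fgf2, 1 was shared with the ranking by genotype means, and 0 with each of the rankings within genotypes and without PWDxB6. The number of arrays limits the precision.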

Other observations

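Among the 50 genes most correlated with Fgf2 over 23 arrays, 14 were X-linked (28%), against 3.21% of all tested genes. Without the PWDxB6 arrays, 0 of the 50 genes highest in that ranking were X-linked, and within genotypes 6 were. These counts were made after the correlations were seen and were not tested. Without PWDxB6, Fgf2 correlated with Fgfr3 at r = 0.83 and with Fgfr2 at r = 0.80 over 20 arrays, against 0.49 and 0.48 over all 23. These arrays share the strain difference between PWD and B6, and within genotypes the values were 0.23 for Fgfr3 and 0.15 for Fgfr2.

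Defb15, the gene most like Fgf2 over 23 arrays, ranked 44 by genotype means. It had means of 8.35 ± 0.78 in PWDxB6 and 7.03 ± 0.26 in B6xPWD (SD, n = 3 each). Its PWDxB6 arrays had 7.94, 9.24 and 7.86. Both hybrid means exceeded PWD (6.74 ± 0.07) and B6 (5.91 ± 0.20). Like Zcchc12 below, Defb15 was picked by a ranking that used the PWDxB6 arrays, so its level there is partly fixed by that choice. Zcchc12, X-linked, had means of 7.20 ± 0.17 in PWDxB6 and 6.10 ± 0.04 in B6xPWD, near PWD (6.98 ± 0.18) and B6 (5.97 ± 0.17), the strains of their mothers.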
